A study of Mus musculus with 88 samples.

Results

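The comparison described here is that of whole blood from pristane-treated and untreated SNF1 mice at week 8, and its members are the 16 arrays, 1 per mouse, that the sample titles place in those groups, of 88 arrays in the series. SNF1 denotes the first-generation cross of the SWR and NZB strains, whose females develop lupus nephritis with age, so the untreated mice carried the same inherited risk. In the pristane group, 8 females received 1 intraperitoneal injection of pristane at 9 weeks of age and blood was taken 8 weeks later. The 8 untreated females were matched for age, which makes both groups 17 weeks old, and no sham or vehicle injection is named for them, so the oil and the act of injection cannot be told apart. The study ran its time course as a pair of independent experiments, and neither the labels nor the files say which mice came from which, so a batch could not be examined.

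Pristane is a branched hydrocarbon oil that persists in the peritoneal cavity and brings on lupus-like autoimmunity in mice. A hallmark of that response is type I interferon, a family of cytokines that act through the IFNAR receptor and JAK kinases to switch on genes that restrict viruses. Neutrophils are short-lived phagocytes that make their granules in a fixed order in the bone marrow. Primary granules hold myeloperoxidase and serine proteases, and secondary and tertiary granules hold lactoferrin, lipocalin, cathelicidin and gelatinase. Transcripts of granule proteins are abundant in marrow precursors and low in fully mature blood neutrophils. In whole blood, more cells of a type and more RNA per cell cannot be told apart.

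Values are log2 signals from Affymetrix arrays, summarised per probe set by the authors with the robust multi-array average (RMA), so that a difference of 1 is a 2-fold change. Of 17097 genes tested, 190 were more than 2-fold higher in pristane-treated mice at an adjusted p under 0.05 in limma (1.11% of genes) and 29 were more than 2-fold lower (0.17%). With the adjusted p alone, which is the threshold for every list count given here, 317 genes were higher (1.85%) and 133 were lower (0.778%). Each gene is represented by 1 probe set. Over all 45037 probe sets, 563 were higher and 445 were lower at the adjusted p alone. Of these, 314 and 118 changed by more than 2-fold. All 8 pristane-treated mice lay above every untreated mouse for 114 genes (0.667%), and all 8 lay below for 24 (0.14%). The non-overlapping genes made up 96 of the 190 large rises and 6 of the 29 large falls. Over the whole set of genes the median log2 change was -0.01.

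The 16 arrays were comparable but 3 stood apart. Their medians ran from 3.81 to 4.01 and their pairwise Pearson correlations from 0.925 to 0.986. Pristane replicate 8 had the lowest mean correlation with the others (0.948). Untreated replicates 3 and 8 had the lowest mean signals over 23 erythroid genes (7.95 and 7.42). The other 6 untreated mice gave 8.50 to 9.18, and the treated mice gave 8.22 (replicate 6) to 9.33. Untreated replicates 3 and 8 also had the highest mean signals over 13 genes of patrolling monocytes (7.90 and 7.93, against 6.43 to 7.27 in the other 6 untreated mice). With those 2 arrays left out, 176 of the 190 large rises and 12 of the 29 large falls remained called, an alternative chosen after seeing the data. The values below are with all 16 arrays, and falls that lost their call without the 2 are named beside their values.

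Most interferon-induced antiviral genes were higher. Of 34 measured antiviral effectors, 22 were higher, none was lower, and all 34 estimates were above 0, with a median change of 1.41 on the log2 scale against -0.01 over all genes. In 16 of the 34 all 8 pristane-treated mice lay above every untreated mouse. The mean signal over the list ran from 8.35 to 9.08 in pristane-treated mice and from 6.88 to 7.99 in untreated mice, so the groups did not overlap.

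Among the transcription factors, Irf7, the master regulator that amplifies type I interferon production, stood out. Its log2 signal had a lowest, median and highest value of 10.00, 10.49 and 10.98 in pristane-treated mice and 6.47, 7.30 and 8.53 in untreated mice. Every treated mouse was above every untreated one, and the treated group was the tighter. The rise was 8.45-fold (95% confidence interval 5.5 to 13, adjusted p = 2.44e-11). Irf9, a DNA-binding factor of type I interferon signalling, rose 2-fold (95% confidence interval 1.53 to 2.62, adjusted p = 0.000469), with 5 of 8 treated mice above the highest untreated mouse. Irf1, a factor more tied to interferon gamma, fell 1.75-fold (95% confidence interval 1.27 to 2.42, adjusted p = 0.0435), and its groups overlapped (8.15 to 9.32 in treated and 8.72 to 10.35 in untreated mice). Without untreated replicates 3 and 8 the fall of Irf1 was -0.55 with an adjusted p of 0.386 in limma. The other 5 measured factors did not pass the test, with log2 changes of -0.73 for Irf8, -0.52 for Irf5, -0.44 for Irf3, -0.40 for Irf4 and 0.20 for Irf2. The rise within this family was therefore carried by 2 of its 8 members.

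The receptors and kinases upstream did not follow. None of 9 measured interferon receptor and signalling genes passed the test, and their changes ran from -0.34 to 0.33. Of 18 nucleic acid sensors and adaptors, the count of higher genes was 2. Ifih1, which encodes the RNA sensor MDA5, ranged over 7.46 to 8.47 in treated and 5.69 to 7.81 in untreated mice and rose 2.61-fold (95% confidence interval 1.88 to 3.63, adjusted p = 4.31e-05). Dhx58, which encodes its relative LGP2, rose 2.26-fold (95% confidence interval 1.51 to 3.37, adjusted p = 0.0104), though only 2 of 8 treated mice exceeded the highest untreated mouse and neither of its 2 other probe sets passed the test. Myd88, the adaptor of Toll-like receptors, gave a change of 0.82 with an adjusted p of 0.0735.

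The effectors themselves gave the largest interferon-linked changes. Rtp4, a receptor transporter protein that restrains viral replication, had log2 signals of 9.32, 9.70 and 10.40 (lowest, median and highest) in treated mice and 5.35, 6.59 and 7.81 in untreated mice. All treated mice lay above, and the rise was 8.71-fold (95% confidence interval 5.56 to 13.6, adjusted p = 6.31e-11). Ifit1, which binds viral RNA that lacks a proper cap, had 9.34, 9.76 and 10.18 in treated and 5.72, 7.20 and 7.49 in untreated mice and rose 7.27-fold (95% confidence interval 4.68 to 11.3, adjusted p = 6.9e-10). Oasl2, of the oligoadenylate synthetase family, rose 7.61-fold (95% confidence interval 4.55 to 12.7, adjusted p = 3.35e-08), from an untreated median of 6.05 to a treated median of 9.23. Usp18, the protease that strips ISG15 from proteins and damps interferon signalling, rose 6.93-fold (95% confidence interval 4.47 to 10.8, adjusted p = 1.39e-09), with the lowest treated mouse at 7.65 and the highest untreated mouse at 6.49. Slfn3, of the Schlafen family, rose 7.43-fold (95% confidence interval 4.84 to 11.4, adjusted p = 1.9e-10), although its 1 other probe set did not pass the test.

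**Figure D1:**
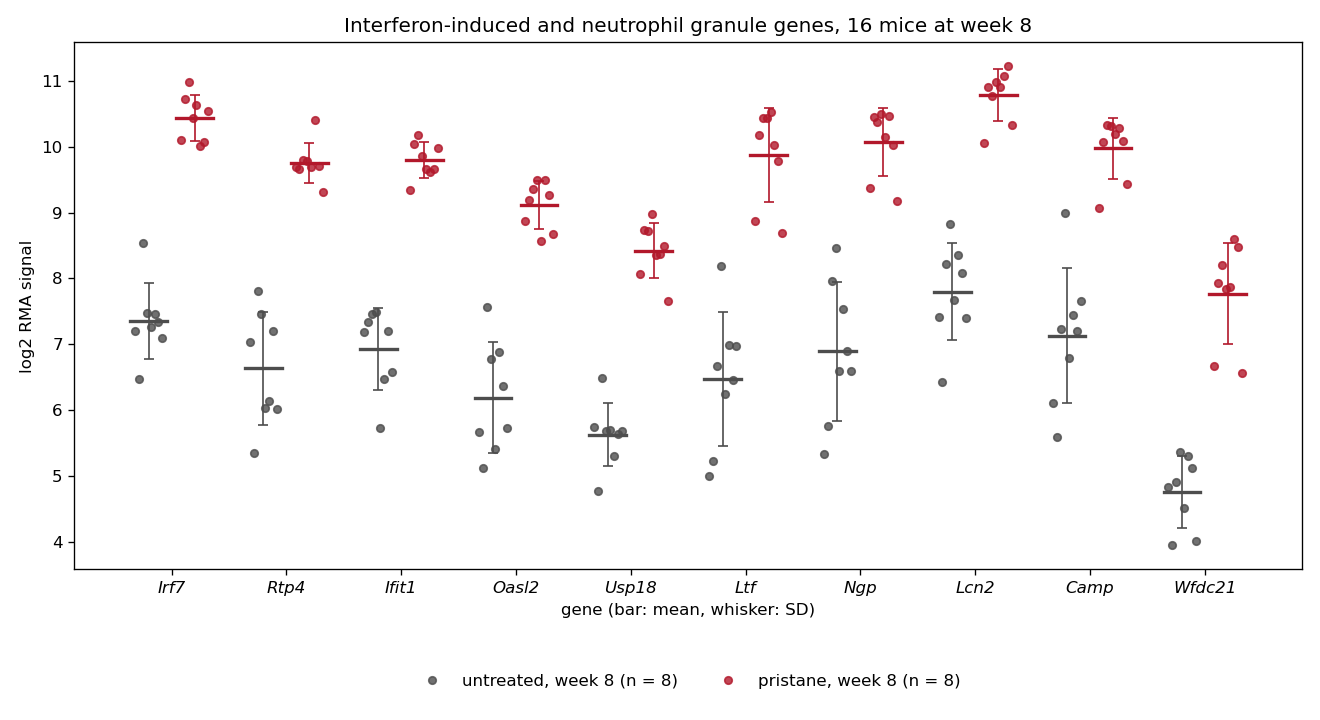
Log2 RMA signal of 5 interferon-linked genes (left) and 5 granule and secreted inhibitor genes of neutrophils (right) in each of 8 untreated (grey) and 8 pristane-treated (red) mice at week 8, with bars for means and whiskers for SDs. For all 10 genes the treated mice sit above the untreated ones, and the SD is larger in the untreated mice for every gene but Wfdc21.

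The synthetases moved together. Oas1g, Oas2, Oas3 and Oasl1, which make or resemble the enzymes that activate RNase L, changed by 2.78, 2.28, 2.04 and 2.77 on the log2 scale, and none of these 4 genes overlapped between groups. Ifit3 and Slfn4 changed by 1.77 and 2.71 with all 8 treated mice above. Ifi27l2a, a mitochondrial interferon-stimulated gene with a high untreated signal (median 9.21), reached a median of 11.17. The 12 effectors that did not pass the test included Mx1, an antiviral GTPase, whose signals spanned 5.08 to 7.41 in treated and 5.17 to 7.65 in untreated mice (change 0.25, adjusted p = 0.84). Isg20, an exonuclease, was already close to the top of the scale in both groups (medians 12.90 and 12.88), and its change was 0.02. Ly6e, an interferon-induced surface protein, was likewise high in both (medians 11.04 and 10.92).

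Genes more closely tied to interferon gamma gave a different count. Of 14 measured guanylate-binding proteins, immunity-related GTPases and chemokines, 1 was higher and none was lower, with a median change of 0.04. The higher gene was Gbp7 (1.74-fold (95% confidence interval 1.3 to 2.32, adjusted p = 0.0185)), whose adjusted p was 0.112 without untreated replicates 3 and 8. Iigp1, a GTPase that attacks parasite vacuoles, had an estimate of -1.39 that missed the threshold (adjusted p = 0.057), and its highest untreated value, 7.13, was that of replicate 3. Cxcl9, a chemokine for activated T cells, did not exceed 2.09 in any treated mouse or in 6 of the untreated mice, and reached 6.02 and 4.34 in untreated replicates 3 and 8. Without those 2 arrays the median change of the 14 genes was 0.19.

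The upstream sequences were compared for the same 2 groups. The windows are the 250 bases before each annotated start (RefSeq, GRCm38.p6), searched on both strands for the interferon-stimulated response element core (GAAA, any 2 bases, GAAA) and for the gamma-activated core (TTC, any 3 bases, GAA), and a window can hold both. Of 13605 array genes with a window, 421 (3.09%) held the first and 7.59% the second. Of 25 measured antiviral effectors with a window, 9 (36%) held the response element core, and these were 8 of the 18 that passed the test and 1 of the 7 that did not. Of 12 measured interferon gamma linked genes with a window, 9 (75%) held it, and of 13 secondary and tertiary granule genes, 1 (7.69%) held it. The gamma-activated core was found in 2 of the 25 effectors (8%), none of which passed the test, in 4 of the 12 gamma linked genes (33.3%) and in 1 of the 13 granule genes. The 3 windows shown are those of the leading effector with the core and of the leading factor and granule gene without it, and capitals mark the core. Ifit1 held it at 2 places, the nearer ending 75 bases before the start.
Ifit1, chr19:34640639-34640888, plus strand: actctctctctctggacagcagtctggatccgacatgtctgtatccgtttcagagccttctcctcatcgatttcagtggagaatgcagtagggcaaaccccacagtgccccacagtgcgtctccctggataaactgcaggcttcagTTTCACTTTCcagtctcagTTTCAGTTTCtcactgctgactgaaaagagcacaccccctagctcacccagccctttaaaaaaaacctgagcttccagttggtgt
Irf7, chr7:141266425-141266674, minus strand: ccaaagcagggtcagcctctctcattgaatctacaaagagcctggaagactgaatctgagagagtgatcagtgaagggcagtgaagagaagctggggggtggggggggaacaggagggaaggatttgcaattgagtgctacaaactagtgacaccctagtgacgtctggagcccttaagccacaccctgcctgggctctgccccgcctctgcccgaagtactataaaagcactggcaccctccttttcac
Ltf, chr9:111019042-111019291, plus strand: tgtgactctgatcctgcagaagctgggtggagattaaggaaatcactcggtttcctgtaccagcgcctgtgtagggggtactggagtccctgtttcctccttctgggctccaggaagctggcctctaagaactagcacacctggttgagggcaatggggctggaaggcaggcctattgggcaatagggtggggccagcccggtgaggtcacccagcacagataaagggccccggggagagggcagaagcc
In the windows of Irf7 and Ltf these letters did not occur, which says nothing on more distant elements or on other spellings of the core.

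Neutrophil granule genes held the largest change among the genes tested. Of 16 measured genes of secondary and tertiary granules, 12 were higher and none was lower, with a median change of 2.05 and no overlap between groups in 9. The mean signal over the list ran from 8.39 to 9.41 in treated mice and from 6.51 to 7.80 in untreated mice. The count of 12 was the same without untreated replicates 3 and 8.

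Ltf, which encodes the iron-binding lactoferrin, gave the largest rise among the genes tested. Its lowest, median and highest log2 signals were 8.69, 10.10 and 10.53 in treated mice and 5.00, 6.57 and 8.19 in untreated mice, and it rose 10.6-fold (95% confidence interval 5.75 to 19.4, adjusted p = 4.69e-08). All treated mice lay above, although the lowest of them sat close to the highest untreated mouse. Ngp, a cathelicidin-like granule protein, had 9.18, 10.26 and 10.50 in treated and 5.33, 6.75 and 8.46 in untreated mice and rose 9.03-fold (95% confidence interval 5.25 to 15.5, adjusted p = 1.59e-08). Lcn2, the siderophore-binding lipocalin, had 10.05, 10.91 and 11.22 against 6.42, 7.88 and 8.82 and rose 7.89-fold (95% confidence interval 4.8 to 13, adjusted p = 7.64e-09). Camp, the cathelicidin precursor, rose 7.2-fold (95% confidence interval 4.15 to 12.5, adjusted p = 4.22e-07), from an untreated median of 7.21 to a treated median of 10.14, with the lowest treated mouse just above the highest untreated one.

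Further members were also higher. Olfm4, which marks a subset of neutrophils, had 3.43, 5.66 and 6.26 in treated and 1.82, 2.52 and 3.05 in untreated mice (adjusted p = 2.64e-08 in limma). Its untreated values all lay below the array medians, so the size of its rise is not firmly measured. Mmp8, the neutrophil collagenase, rose 6.18-fold (95% confidence interval 3.88 to 9.84, adjusted p = 3.86e-08). Cd177, a surface glycoprotein of neutrophils, and Mmp9, the gelatinase of tertiary granules, changed by 2.50 and 1.57 without overlap. The 4 members that did not pass the test included Cybb, the catalytic subunit of the phagocyte oxidase (0.07), and Lyz2, the lysozyme shared with monocytes (-0.07).

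Primary granule genes, which are transcribed in earlier marrow precursors, had low signals. Of 5 measured, 3 were higher, with a median change of 0.71, and 3 of the 5 (Mpo, Elane and Ms4a3) had untreated medians below the array medians, where a change may be understated. Mpo, myeloperoxidase, had 3.68, 4.77 and 5.65 in treated and 2.89, 3.27 and 4.05 in untreated mice and rose 2.56-fold (95% confidence interval 1.81 to 3.61, adjusted p = 0.000183), with 6 of 8 treated mice above the untreated range. Prtn3, proteinase 3, rose 1.98-fold (95% confidence interval 1.5 to 2.6, adjusted p = 0.000808) and Ctsg, cathepsin G, rose 1.64-fold (95% confidence interval 1.23 to 2.18, adjusted p = 0.0422). The rise of Ctsg lost its call without untreated replicates 3 and 8 (change 0.66, adjusted p = 0.149). Elane, neutrophil elastase, and Ms4a3, a marker of granulocyte and monocyte precursors, gave 0.28 and 0.40 and did not pass the test.

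The stefin and whey acidic protein inhibitors gave 3 higher of 5 measured. Wfdc21 had 6.56, 7.90 and 8.60 in treated and 3.95, 4.87 and 5.36 in untreated mice and rose 8.1-fold (95% confidence interval 4.85 to 13.5, adjusted p = 1.43e-08). Stfa2l1, an intracellular cysteine protease inhibitor, rose 6.98-fold (95% confidence interval 4.25 to 11.5, adjusted p = 3.81e-08) without overlap. Stfa3, another stefin, rose 9.1-fold (95% confidence interval 4.87 to 17, adjusted p = 6.02e-07), but its treated mice were spread from 2.85 to 7.69, with 7 of 8 above every untreated mouse and 1 within the untreated range. The untreated mean of Stfa3 lay below the array medians, so the size of its rise is not firmly measured. Cstb, cystatin B, and Csta1 gave changes of 0.42 and -0.13 and did not pass the test. Stefin genes form a family of close copies, so probe sets may not separate all members.

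Of 18 receptors and effectors of mature neutrophils, 12 were higher and none was lower, with a median change of 0.90. Lrg1, a secreted glycoprotein stored in granules, rose 6.42-fold (95% confidence interval 3.73 to 11, adjusted p = 1.16e-06). Padi4, the enzyme that citrullinates histones in neutrophil extracellular traps, ranged over 4.84 to 6.96 in treated and 3.79 to 5.33 in untreated mice and rose 2.86-fold (95% confidence interval 1.89 to 4.32, adjusted p = 0.000585). S100a8 and S100a9, the subunits of calprotectin, were bright in all 16 mice, and rose 1.9-fold (95% confidence interval 1.57 to 2.3, adjusted p = 2.98e-06) and 1.48-fold (95% confidence interval 1.27 to 1.72, adjusted p = 0.000439), each with all 8 treated mice above. Csf3r, the receptor for granulocyte colony-stimulating factor, changed by 1.22. Cxcr2, the chemokine receptor of circulating neutrophils, did not overlap between groups but missed the threshold (change 0.84, adjusted p = 0.0587). Entpd3, an ectonucleotidase, and Steap4, a metalloreductase, were in no list and were among the 15 largest rises, at 7.96-fold and 7.65-fold with no overlap. Except in replicate 6 (4.81), the untreated values of Entpd3 lay below the array medians, so the size of its rise is not firmly measured.

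**Figure D2:**
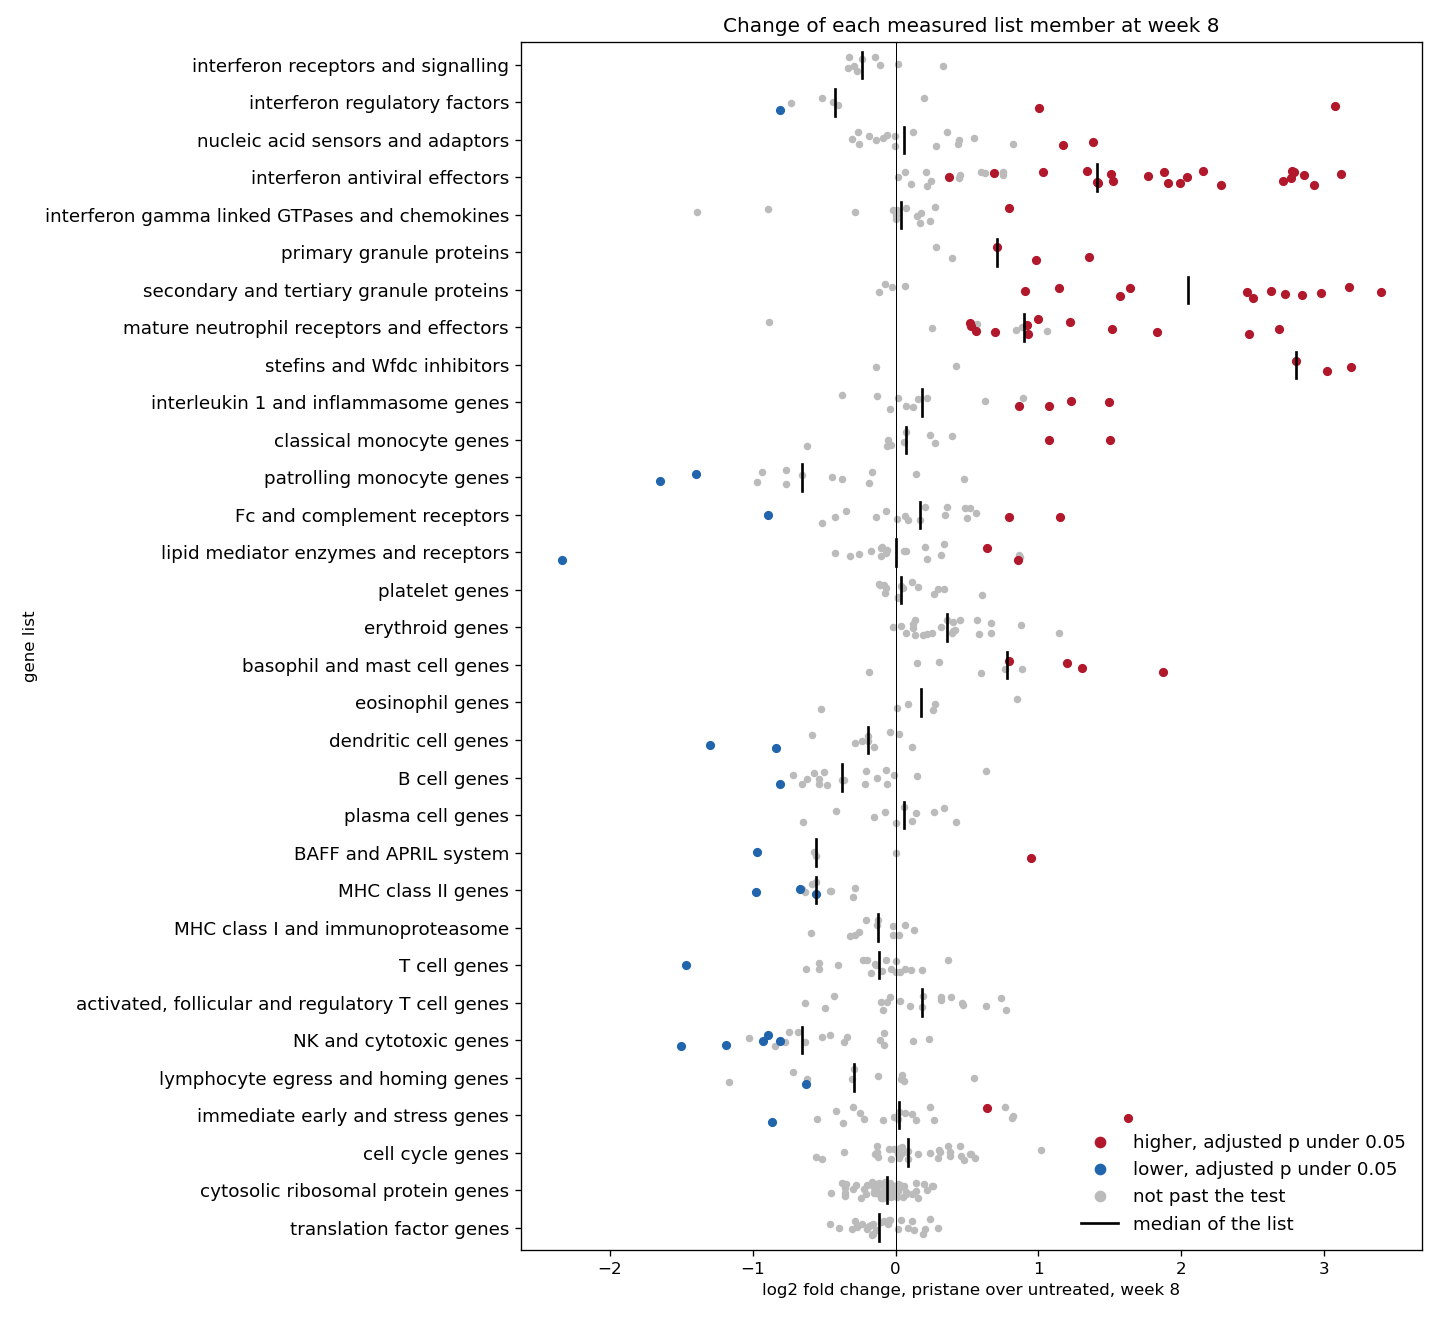
Log2 fold change of every measured member of 32 gene lists at week 8 (horizontal axis, each point 1 gene, lists on the vertical axis), with points past an adjusted p under 0.05 in red (higher) or blue (lower) and the list median as a black bar. The antiviral effectors and the secondary and tertiary granule list lie far to the right, with medians of 1.41 and 2.05, while platelet, plasma cell, ribosomal and cell cycle lists sit around 0 with no member past the test.

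Inflammatory mediators of myeloid cells rose in part. Of 14 interleukin 1 and inflammasome genes, 4 were higher. Casp4, a cytosolic sensor of lipopolysaccharide, had 8.06, 8.25 and 9.19 in treated and 5.76, 6.81 and 7.95 in untreated mice and rose 2.81-fold (95% confidence interval 1.89 to 4.18, adjusted p = 0.000367). Il1b, the cytokine itself, rose 1.82-fold (95% confidence interval 1.35 to 2.44, adjusted p = 0.0105), with the lowest treated mouse at 10.37 and the highest untreated mouse at 10.19. The receptor antagonist Il1rn rose 2.11-fold (95% confidence interval 1.4 to 3.19, adjusted p = 0.0301) and the receptor accessory chain Il1rap rose 2.35-fold (95% confidence interval 1.57 to 3.5, adjusted p = 0.00584), though none of the 4 other Il1rap probe sets passed the test. Of 20 genes for lipid mediators, Alox5, the 5-lipoxygenase that starts leukotriene synthesis, rose 1.81-fold (95% confidence interval 1.33 to 2.48, adjusted p = 0.0194), and Ltb4r1, the receptor for leukotriene B4, rose 1.56-fold (95% confidence interval 1.26 to 1.94, adjusted p = 0.00869). Alox5 missed the threshold without untreated replicates 3 and 8 (adjusted p = 0.0554). Ltb4r1 missed it when pristane replicate 8 was left out as well (adjusted p = 0.0633).

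Hpgd, the dehydrogenase that inactivates prostaglandins, gave the largest fall among the genes tested. Its lowest, median and highest signals were 2.64, 4.38 and 6.02 in treated mice and 5.90, 6.77 and 7.16 in untreated mice. The fall was 5.06-fold (95% confidence interval 2.83 to 9.04, adjusted p = 0.00011), 7 of 8 treated mice lay below every untreated mouse, and its 1 other probe set was lower too.

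Among Fc and complement receptors, 2 of 19 were higher and 1 was lower. C5ar1, the receptor for the chemoattractant C5a, had 9.56, 10.42 and 10.81 in treated and 8.98, 9.14 and 9.52 in untreated mice and rose 2.23-fold (95% confidence interval 1.7 to 2.92, adjusted p = 3.75e-05). Itgam, the CD11b chain of complement receptor 3, rose 1.74-fold (95% confidence interval 1.28 to 2.35, adjusted p = 0.0283). Cd55, which protects cells from complement, fell 1.85-fold (95% confidence interval 1.29 to 2.66, adjusted p = 0.0498), an estimate that stood at the threshold, and neither of its 2 other probe sets passed the test. Without untreated replicates 3 and 8 its adjusted p was 0.052.

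Monocyte genes gave few calls. Of 11 classical monocyte genes, 2 were higher and none was lower, with a median change of 0.07. Cd14, the co-receptor for lipopolysaccharide, rose 2.84-fold (95% confidence interval 1.89 to 4.26, adjusted p = 0.000479) with no overlap, and Ly6c1, a Ly6C antigen gene, rose 2.11-fold (95% confidence interval 1.4 to 3.18, adjusted p = 0.0304) with overlapping groups. Csf1r, the receptor for colony-stimulating factor 1, gave -0.62 and did not pass the test. Of 13 genes of patrolling monocytes, which crawl along vessel walls, 2 were lower and the median change was -0.65. Cx3cr1, the fractalkine receptor, had 4.83, 5.21 and 5.76 in treated and 5.98, 6.51 and 8.85 in untreated mice and fell 3.14-fold (95% confidence interval 2.13 to 4.63, adjusted p = 3.61e-05). All 8 treated mice lay below all 8 untreated mice. Untreated replicates 3 and 8 gave its 2 highest values (8.51 and 8.85), and without them the change was -1.08 with an adjusted p of 0.00815. Its 1 other probe set did not pass the test. Ace, angiotensin-converting enzyme, fell 2.63-fold (95% confidence interval 1.6 to 4.32, adjusted p = 0.0154), but untreated replicates 3 and 8 gave its 2 highest values (7.77 and 8.04) and without them the change was -0.89 with an adjusted p of 0.301. Without these 2 arrays the median of the 13 genes was -0.26.

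Natural killer and cytotoxic genes gave 5 lower of 20 measured and none higher, with a median of -0.66. Ncr1, which encodes the activating receptor NKp46, had 2.73, 3.14 and 4.00 in treated and 3.78, 4.60 and 5.69 in untreated mice and fell 2.84-fold (95% confidence interval 1.87 to 4.32, adjusted p = 0.000761). Its treated median lay below the array medians, so the size of its fall is not firmly measured. Klrb1c, the NK1.1 antigen, fell 1.75-fold (95% confidence interval 1.36 to 2.26, adjusted p = 0.00402) with all 8 treated mice below, and Klrk1, the NKG2D receptor, fell 1.91-fold (95% confidence interval 1.32 to 2.74, adjusted p = 0.0374) with 7 of 8 below. Gzma, granzyme A, and Tbx21, the T-bet factor, fell 2.27-fold (95% confidence interval 1.46 to 3.54, adjusted p = 0.0255) and 1.86-fold (95% confidence interval 1.33 to 2.6, adjusted p = 0.0251). Without untreated replicates 3 and 8 the count was 2, with Ncr1 and Klrb1c still past the test, and the adjusted p was 0.246 for Klrk1, 0.21 for Gzma and 0.233 for Tbx21.

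**Figure D3:**
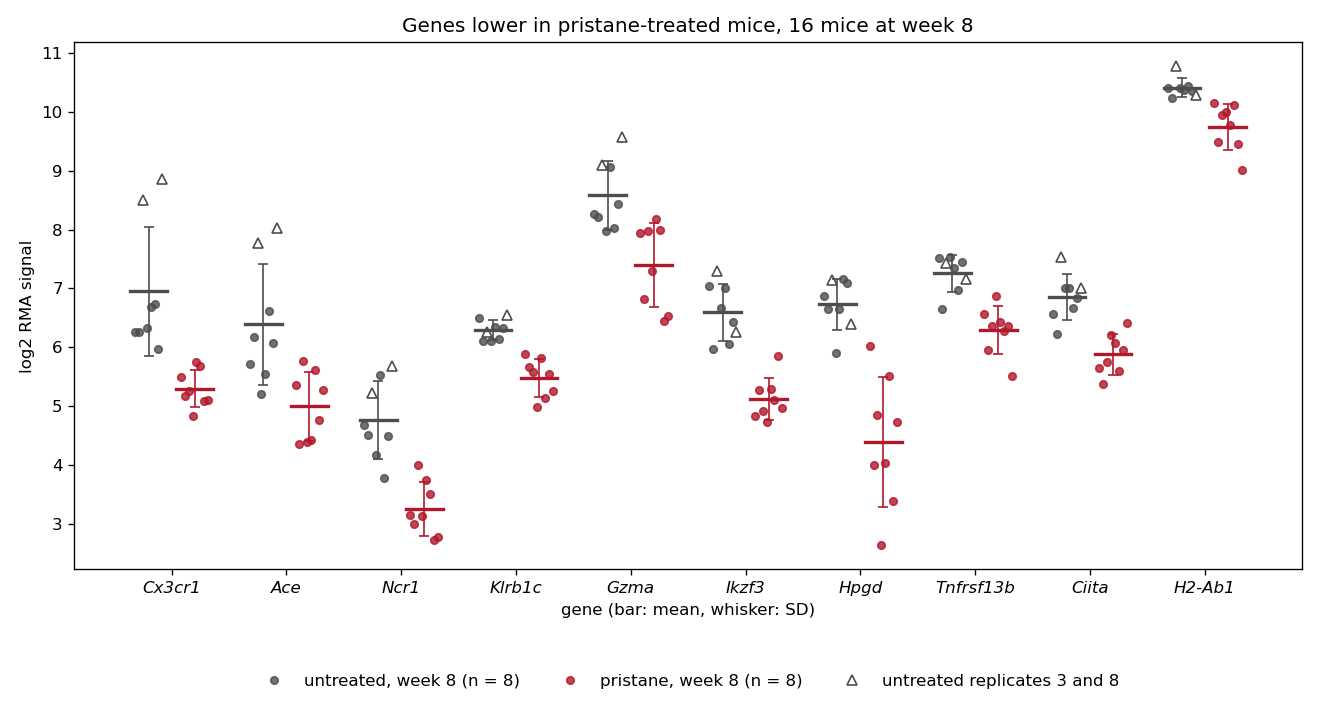
Log2 RMA signal of 10 genes that were lower in pristane-treated mice (red) than in untreated mice (grey) at week 8, with bars for means, whiskers for SDs and open triangles for untreated replicates 3 and 8. The 2 marked mice give the highest untreated values of Cx3cr1 and Ace, whereas the untreated values of Klrb1c and Ikzf3 lie above all treated values with or without them.

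Of 11 measured MHC class II genes, which present antigen to T cells, 3 were lower and none was higher. All 11 estimates were below 0, from -0.98 to -0.29 (median -0.56). Ciita, the transactivator of the class II genes, ranged over 5.38 to 6.41 in treated and 6.22 to 7.54 in untreated mice and fell 1.97-fold (95% confidence interval 1.48 to 2.61, adjusted p = 0.00139). H2-Ab1, a class II beta chain, fell 1.59-fold (95% confidence interval 1.25 to 2.02, adjusted p = 0.0189) with all 8 treated mice below, and Cd74, the invariant chain, fell 1.47-fold (95% confidence interval 1.21 to 1.79, adjusted p = 0.0148). Both lost their calls without untreated replicates 3 and 8 (adjusted p = 0.076 and 0.0912), while Ciita stayed past the test (adjusted p = 0.0239). None of 12 MHC class I and immunoproteasome genes passed the test.

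Few lymphocyte genes passed the test. Of 19 B cell genes, 1 was lower and none was higher (median -0.37), with 17 estimates below 0 and 2 above. That gene was Spib, an Ets factor of B cells and plasmacytoid dendritic cells, which fell 1.75-fold (95% confidence interval 1.28 to 2.39, adjusted p = 0.0321) with all 8 treated mice below and lost its call without the 2 untreated arrays (adjusted p = 0.0637). Cd180, a Toll-like receptor relative that tunes B cell activation, was among the 15 largest falls (2.33-fold (95% confidence interval 1.72 to 3.17, adjusted p = 0.000125)). Of 20 T cell genes, the lower one was Ikzf3, the Aiolos factor of mature lymphocytes. It had 4.73, 5.04 and 5.85 in treated and 5.97, 6.56 and 7.30 in untreated mice and fell 2.77-fold (95% confidence interval 1.88 to 4.07, adjusted p = 0.000283), without overlap, although its 1 other probe set did not pass the test. None of 19 genes of activated, follicular and regulatory T cells and none of 11 plasma cell genes passed the test.

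In the BAFF and APRIL system the ligand and a receptor moved apart. Tnfsf13b, which encodes the B cell survival factor BAFF, had 6.39, 7.23 and 7.75 in treated and 5.07, 6.16 and 6.93 in untreated mice and rose 1.93-fold (95% confidence interval 1.37 to 2.72, adjusted p = 0.018). Neither of its 2 other probe sets passed the test. Tnfrsf13b, which encodes the receptor TACI, had 5.52, 6.36 and 6.86 against 6.65, 7.39 and 7.53 and fell 1.96-fold (95% confidence interval 1.46 to 2.62, adjusted p = 0.00259). The 7 treated mice below the untreated range left 1 within it. Tnfsf13 (APRIL), Tnfrsf13c (the BAFF receptor) and Tnfrsf17 (BCMA) gave -0.56, -0.57 and 0.00 and did not pass the test.

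Dendritic cell genes gave 2 lower of 11, with 9 estimates below 0 and 2 above. The mean signal over the list ran from 4.58 to 4.81 in treated mice and from 4.92 to 5.14 in untreated mice, without overlap. Ccr9, a homing receptor found on plasmacytoid dendritic cells, fell 2.47-fold (95% confidence interval 1.67 to 3.64, adjusted p = 0.00211), and none of its 3 other probe sets passed the test. Ly6d, a surface antigen of the Ly6 family, fell 1.79-fold (95% confidence interval 1.35 to 2.37, adjusted p = 0.00864). Dnase1l3, a nuclease that digests DNA in blood and whose loss causes lupus in people and mice, was in no list and fell 2.56-fold (95% confidence interval 1.68 to 3.9, adjusted p = 0.00349), with 7 of 8 treated mice below the untreated range. All of its treated values lay below the array medians, so the size of its fall is not firmly measured. Its adjusted p was 0.076 without untreated replicates 3 and 8, and that of Calhm6, another of the 15 largest falls (2.63-fold (95% confidence interval 1.72 to 4.02, adjusted p = 0.0027)), was 0.0994. Of the 15 largest falls, 3 others had all treated mice below, and none of their other probe sets passed the test. These were 4632427E13Rik (2.67-fold (95% confidence interval 1.79 to 3.99, adjusted p = 0.000985)), with a highest treated value of 4.24 and a lowest untreated value of 4.25, and the zinc finger genes Zfp62 (2.43-fold (95% confidence interval 1.72 to 3.44, adjusted p = 0.000433)) and Zfp800 (2.41-fold (95% confidence interval 1.66 to 3.49, adjusted p = 0.00164)). Ctso, a cysteine protease, Cxxc5, a CpG-binding protein, and Slc46a3, a lysosomal transporter, fell 2.5-fold, 2.44-fold and 2.37-fold, with 7, 7 and 3 of 8 treated mice below the untreated range. All treated values of Ctso and most of those of 4632427E13Rik lay below the array medians. The sizes of the falls of Ctso and 4632427E13Rik are likewise not firmly measured. Slc46a3 lost its call without untreated replicates 3 and 8 (change -0.85, adjusted p = 0.221).

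Basophil and mast cell genes were higher in part, with 4 of 10 past the test and a median of 0.78. Hdc, histidine decarboxylase, which makes histamine and is also made by neutrophils, had 9.05, 9.89 and 10.69 in treated and 7.05, 8.26 and 8.45 in untreated mice and rose 3.66-fold (95% confidence interval 2.5 to 5.36, adjusted p = 1.56e-06) with no overlap. Mcpt8, the basophil protease, rose 2.47-fold (95% confidence interval 1.53 to 3.99, adjusted p = 0.022), and Ms4a2, the beta chain of the IgE receptor, rose 2.3-fold (95% confidence interval 1.44 to 3.67, adjusted p = 0.0373). Cyp11a1, a steroid-synthesis enzyme found in some immune cells, rose 1.73-fold (95% confidence interval 1.28 to 2.35, adjusted p = 0.032). Without untreated replicates 3 and 8 the list count was 2, and Ms4a2 and Cyp11a1 had adjusted p values of 0.0919 and 0.111. Fcer1a, the alpha chain of the same receptor, and Cpa3, a granule protease, gave 0.77 and 0.89 and did not pass the test.

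Stress genes were mixed. Of 21 immediate early and stress genes, Ier3, an apoptosis regulator, rose 3.08-fold (95% confidence interval 1.92 to 4.94, adjusted p = 0.00143) with all treated mice above, Junb, an AP-1 subunit, rose 1.56-fold (95% confidence interval 1.24 to 1.95, adjusted p = 0.0148), and Klf4, a factor of monocytes, fell 1.82-fold (95% confidence interval 1.36 to 2.44, adjusted p = 0.00988). Klf2, which keeps lymphocytes recirculating, fell 1.55-fold (95% confidence interval 1.23 to 1.95, adjusted p = 0.0225) and was the 1 lower gene of 11 for egress and homing. Neither Klf gene kept its call without untreated replicates 3 and 8 (adjusted p = 0.317 for Klf4 and 0.2 for Klf2).

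Several groups gave no call at all. None of 15 platelet genes (median 0.04), 23 erythroid genes (median 0.36), 6 eosinophil genes, 33 cell cycle genes, 65 ribosomal protein genes (median -0.06) and 28 translation factor genes passed the test. The erythroid signal was the most variable, with mean signals from 8.22 to 9.33 in treated mice and 7.42 to 9.18 in untreated mice.

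Part of these calls did not hold when 1 array was left out, which also lowers the power for genes close to the threshold. Of 88 named genes past the test, 63 passed it whichever 1 of the 16 arrays was left out. These included every antiviral effector and every secondary or tertiary granule gene given above as higher, and Irf7, Irf9, Cx3cr1, Ncr1, Klrb1c, Ikzf3, Ciita and Hpgd. The least stable calls were those of Cd55 and Ctsg, each lost without any of 12 arrays (highest adjusted p = 0.165 and 0.209), followed by Irf1 and Rbm47 with 10 arrays (0.15 and 0.116), Klrk1, Ms4a2 and Samd8 with 9 (0.123, 0.11 and 0.0734), Ly6c1 with 8 (0.0936) and Cyp11a1 with 7 (0.102). Gzma was lost without any of 6 arrays (0.0893), Il1rn, Itgam and Tbx21 without any of 5 (0.07, 0.1 and 0.109), Spib without any of 4 (0.129), and Klf2 and Mcpt8 without any of 3 (0.092 and 0.0619). Ace and Klf4 were lost without untreated replicate 3 or 8 (0.0818 and 0.0655), Cd74 without pristane replicate 2 or 4 (0.0513), Gbp7 without pristane replicate 2 or untreated replicate 8 (0.0774), and H2-Ab1 without pristane replicate 8 or untreated replicate 3 (0.0721). Junb was lost without pristane replicate 7 or untreated replicate 8 (0.0608), Tnfsf13b without pristane replicate 6 or untreated replicate 6 (0.0819), Alox5 without untreated replicate 4 (0.0539) and Slc46a3 without untreated replicate 3 (0.0581). The count of lower natural killer genes was 2 or 3 without pristane replicate 2, 7 or 8 or untreated replicate 3, 5 or 8, and that of higher basophil genes was 1 or 2 without pristane replicate 1, 2 or 6 or untreated replicate 1 or 8.

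The treated mice were also compared among themselves through the 2 leading programmes. Pristane replicate 6 had the highest mean signal in both the antiviral list (9.08) and the granule list (9.41), and replicate 8 had the lowest in both (8.35 and 8.39). Untreated replicate 3 was the highest untreated mouse in both (7.99 and 7.80), and untreated replicate 2 the lowest in both (6.88 and 6.51). Even the lowest treated mouse lay above the highest untreated mouse on each axis. The arrays of pristane replicates 6 and 8 and untreated replicates 3 and 2 had interquartile ranges of 3.36, 2.74, 3.60 and 2.94. Pristane replicate 1 had the widest treated range (3.44), with list means of 8.55 and 8.54. The part of array spread in which mice were highest or lowest was not tested.

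**Figure D4:**
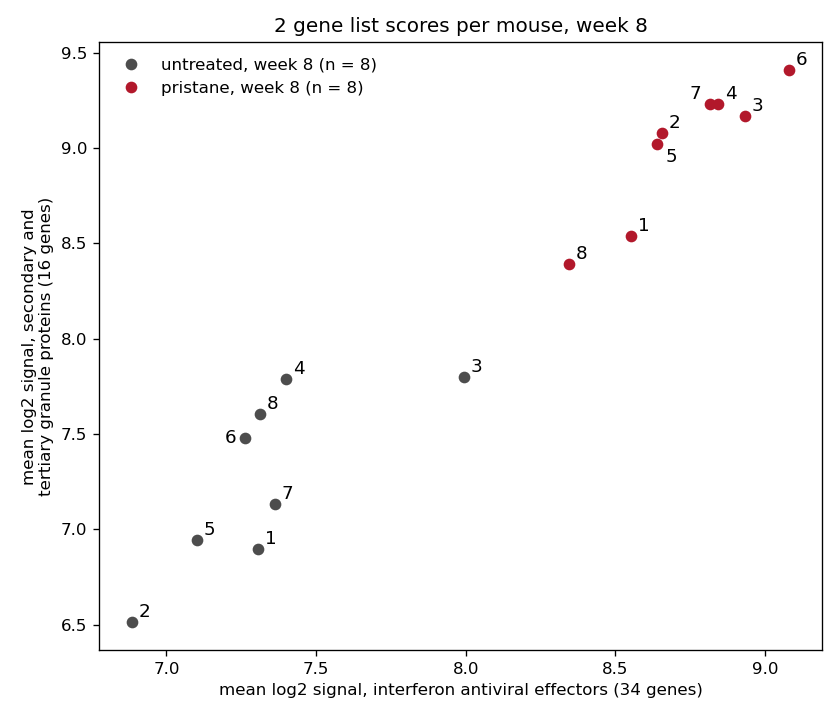
Mean log2 signal over 34 interferon antiviral effector genes (horizontal axis) against that over 16 secondary and tertiary granule genes (vertical axis) in 16 mice at week 8, labelled by replicate number, with untreated mice in grey and pristane-treated mice in red. The 8 treated mice lie in the upper right, at 8.35 to 9.08 and 8.39 to 9.41, apart from the 8 untreated mice at 6.88 to 7.99 and 6.51 to 7.80.

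To place week 8 within the time course, its pristane effect was tested against those of weeks 4, 12 and 14, each week with its own 8 treated and 8 untreated mice. No gene differed from week 4 at an adjusted p under 0.05 in limma, with 566 genes (3.31%) at an unadjusted p under 0.05. None differed from week 12 either, with 703 (4.11%) at an unadjusted p under 0.05. Irf7 gave log2 changes of 2.88, 3.08 and 3.06 at weeks 4, 8 and 12, and Ltf gave 3.59, 3.40 and 2.75. The median change of the antiviral list was 1.53, 1.41 and 1.44 at these weeks, and that of the granule list was 1.86, 2.05 and 1.47. Some other list medians varied more. Those of patrolling monocyte genes were -0.16, -0.65 and 0.26, and those of natural killer and cytotoxic genes were -0.46, -0.66 and 0.15. Interferon gamma linked genes gave medians of 0.55, 0.04 and 0.57, and classical monocyte genes gave 0.65, 0.07 and 0.87. Without untreated replicates 3 and 8, the week 8 patrolling monocyte and interferon gamma linked medians lay closer to those of weeks 4 and 12. Mx1, which did not pass the test at week 8, gave 1.61 and 1.73 at weeks 4 and 12, with an adjusted p of 1 for the difference from week 4 and 0.911 from week 12.

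Week 14 differed. The pristane effect was more positive at week 8 in 129 genes (0.755%) and more positive at week 14 in 183 (1.07%). None of the antiviral effectors and none of the granule genes was among these 312, although the antiviral median was 0.89 at week 14. C5ar1 was raised at week 8 and not at week 14 (0.16), a difference of 0.99 (adjusted p = 0.0411), and Il1rn went from 1.08 to -0.43, a difference of 1.51 (adjusted p = 0.0398).

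The reverse pattern was seen in 6 of 15 platelet genes. Itga2b, the platelet integrin chain, changed by -0.12 at week 8 and 1.41 at week 14, a difference of -1.53 (adjusted p = 0.000178). Vwf, von Willebrand factor, gave -0.11 and 1.30, a difference of -1.41 (adjusted p = 0.00165). Gp1bb, a subunit of its receptor, gave -0.07 and 1.32. The largest negative differences were those of Itgb5, an integrin chain (-1.92), Pla2g10, a secreted phospholipase (-1.67), Hacd1, an enzyme of fatty acid elongation (-1.64), Cpq, a carboxypeptidase (-1.62), and Nlrx1, a mitochondrial regulator of innate signalling (-1.57). The largest positive differences were those of Pfn2, a profilin (2.57), Fam204a (1.98), Rprd2 (1.87), Samd8 (1.83) and Rbm47, an RNA-binding protein (1.77). Of these 10 genes, Samd8 and Rbm47 passed the test at week 8 itself, with changes of 1.05 and 1.27.

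**Figure D5:**
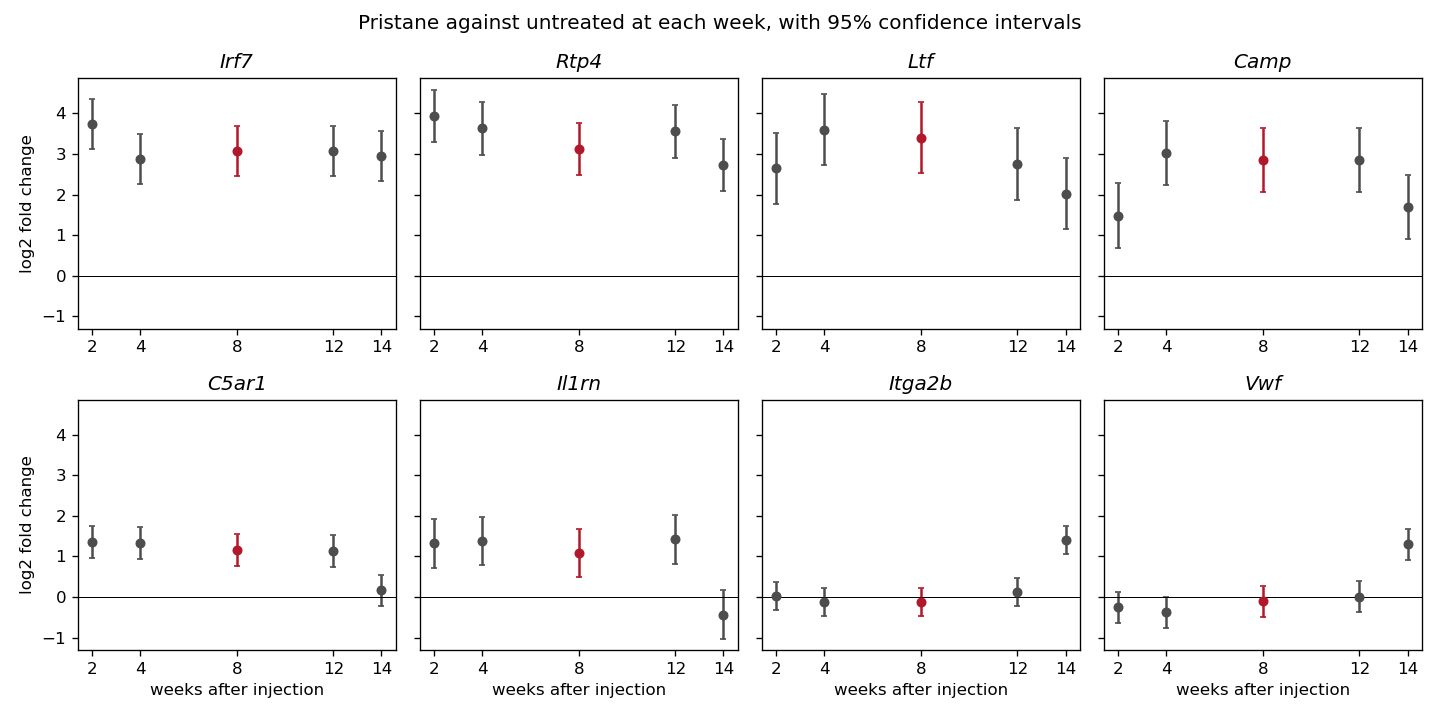
Log2 fold change of pristane-treated over untreated mice at 2, 4, 8, 12 and 14 weeks after injection for 8 genes, with 95% confidence intervals and week 8 in red (8 treated and 8 untreated mice per week). Irf7 and Rtp4 stay high at every week, Ltf and Camp are high throughout with lower estimates at week 14, C5ar1 and Il1rn lie near 0 or below at week 14, and Itga2b and Vwf lie near 0 until week 12 and above 1 at week 14.

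The difference between weeks 8 and 14 carries the spread of 32 mice and moved with single arrays. Its count of 312 genes ran from 191 without pristane replicate 7 to 505 without pristane replicate 8. The erythroid list had a median change of 0.36 at week 8 and 0.91 at week 14, and its part in the differences was not tested.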

How the data were processed

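RNA of whole blood was hybridised to Affymetrix HT MG-430 PM array plates, 1 array per mouse. The authors deposited log2 intensities from RMA (the submitters' processing notes also name Partek, both without versions). The table held 45141 probe sets, and the fit took all 45037 that were not controls (104), dim ones included. The probe table assigned 28898 of them to 1 gene, listed 551 with several and did not list 15588, and 28689 IDs matched the gene reference. Each of 17097 genes was represented by its brightest 1-gene probe set.

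The 11 group means of 88 arrays were fitted with limma 3.58.1 in R 4.3.3 (77 residual and 5.81 prior degrees of freedom), and Benjamini-Hochberg adjustment ran over all probe sets within each contrast. Large changes were those over 2-fold at an adjusted p under 0.05. The differences between weeks were contrasts of the same fit. The fit was tested on simulated data. Precision is limited by the 8 arrays a group, and the labels name no litter, cage or batch.

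Members and gene lists were chosen with earlier results of these data known. Of 638 list genes, 542 were measured and the rest are not analysed here. The genes named are the 15 largest rises and 15 largest falls, in each list the 4 members of largest moderated t and those against its direction, the 5 largest differences of each sign between weeks, and the interferon regulatory factor, primary granule, stefin and BAFF lists, less some left out for length. Cd177, Cpa3, Csf3r, Cxcr2, Cybb, Fcer1a, Gp1bb, Ifi27l2a, Ifit3, Isg20, Itga2b, Klrk1, Ly6e, Lyz2, Mmp9, Mx1, Oas2, Oas3, Oasl1, Slfn4 and Vwf were chosen after their values were seen. Other normalizations, probe summaries, covariates, array weights, controls, a replicate block and left-out arrays were tried as alternatives.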

Additional observations from a re-analysis of the deposited data

Results flagged for a closer look

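Single values that lay far from the other 7 of their group were looked for in 306 groups of 8 values (121 genes and 32 list means, treated and untreated mice apart), of which chance marks about 1 in 20, and 22 were found. Pristane replicate 8 gave 7 of them, all low. Its array had the narrowest interquartile range of the 16 (2.74, against 2.94 to 3.60 in the others) and the highest median (4.01), and their part in these values was not tested. These were Calhm6 (2.73, against 5.27 to 6.29 in the other treated mice), Csf3r (8.45, against 9.38 to 9.82), Cstb (8.43, against 9.24 to 9.90), Samd8 (6.04, against 7.30 to 7.88), Spib (7.59, against 8.51 to 9.18), and the list means of Fc and complement receptors (6.45, against 6.88 to 7.20) and of the BAFF and APRIL system (5.59, against 6.17 to 6.68). Pristane replicate 6 was high in Casp4 (9.19) and Rtp4 (10.40) and low in the cell cycle mean (5.17, against 5.59 to 5.85). Pristane replicate 1 was low in Stfa3 (2.85, against 5.84 to 7.69) and Zfp800 (3.86), and replicate 7 was high in Csta1 (4.49).

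Among untreated mice, replicate 3, whose array had the widest interquartile range (3.60), was high in H2-Ab1 (10.77, against 10.23 to 10.44), Samd8 (7.71) and the antiviral effector mean (7.99, against 6.88 to 7.40). Untreated replicate 8 was low in Cxcr2 (5.67), Irf2 (7.57) and Steap4 (4.13), replicate 5 was low in Hacd1 (3.11) and Nlrx1 (6.58), and replicate 4 was low in Alox5 (6.03).

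The pristane effect at week 8 differed from that at week 14, by limma's test of the difference, for 15 of the genes named. The differences on the log2 scale were positive for Pfn2 (2.57), Fam204a (1.98), Rprd2 (1.87), Samd8 (1.83), Rbm47 (1.77), Il1rn (1.51) and C5ar1 (0.99). They were negative for Itgb5 (-1.92), Pla2g10 (-1.67), Hacd1 (-1.64), Cpq (-1.62), Nlrx1 (-1.57), Itga2b (-1.53), Vwf (-1.41) and Gp1bb (-1.39).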

How the results depend on the processing

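All 219 genes changed by more than 2-fold at week 8 and tested in an alternative kept their direction in it, and the count of large rises stayed within 1.5 times of 190 in all. With 1 array left out the large rises numbered 174 to 226, the large falls 18 (without untreated replicate 3) to 44 (without untreated replicate 2), the rises at the adjusted p alone 257 to 359 and the falls 83 to 188. The large falls, 29 with all arrays, numbered 18 with array weights, 14 with the mean of a gene's probe sets, 13 without untreated replicates 3 and 8 and 15 without those and pristane replicate 8. The falls at the adjusted p alone, 133 with all arrays, numbered 83 with arrays centred on their medians, 229 with the interquartile range as a covariate, 213 with array weights, 205 with the mean of a gene's probe sets, 58 and 56 without the 2 and the 3 arrays, and 610 with the untreated mice of weeks 4, 8 and 12 as the control. The rises at the adjusted p alone, 317 with all arrays, numbered 491 with array weights and 710 with that wider control. The count of genes that differed from week 14, 312 in the model of all arrays, was 176 with 32 arrays, 469 and 515 with the interquartile range and the erythroid mean as covariates, 971 with array weights, 660 without the 3 arrays and 191 to 505 with 1 array left out. The counts against weeks 4 and 12 were 0 throughout. The causes of these shifts were not tested. Leaving out the 2 or the 3 arrays was chosen after seeing the data. With the mean of a gene's probe sets Ccr9 gave -0.36 (adjusted p = 0.163), and 4632427E13Rik, Zfp62, Zfp800, Samd8, Gbp7, Tnfsf13b, Cd55 and Klf4 no longer passed the test.

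Whether equal replicate numbers paired the mice is not given by the labels and could not be settled from the values. The correlations of the deviations of equal numbers ran from -0.06 to 0.33, and 2 of 8 were above 0.1. Of the 8 treated mice, 3 correlated best with their own number. With the replicate number as a block the 16 arrays gave 209 large changes, 205 of them shared, as against 209 and 206 without it. At the adjusted p alone the rises numbered 315 with the block and 304 without it, and the falls 137 and 109. With the block the 32 arrays gave 122 genes that differed from week 14.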
